A study of Mus musculus with 12 samples.

Results

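The expression of 10 genes of inflammatory signalling was examined in small brain vessels of mice with and without the receptor Notch3. The genes were the CXC chemokines Cxcl1, Cxcl2, Cxcl10 and Cxcl12, the CC chemokines Ccl2, Ccl3 and Ccl4, and the cytokines Il1b, Il6 and Tnf. They were taken by name from the 18193 genes for which the array has a probe set annotated to 1 gene only. A total of 14 probe sets named 1 of the 10 alone, and for each gene the probe set with the highest mean over the 12 arrays was used, with the others as a check. A gene entered the tests when at least 3 of the 12 arrays read above 3.27, the median of all log2 values. On this rule 7 of the 10 were tested, among 11716 genes in all. Ccl2, Ccl4 and Il6 were at or under 3.27 on every array and were not.

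The study profiled microvascular fragments of cerebellum and cerebrum on Affymetrix mouse genome arrays, from 3 Notch3 knockout mice and 3 littermate controls with the genotype label wildtype, all of the strain C57BL/6 and 2 months old. The 4 groups of 3 arrays were knockout cerebellar, control cerebellar, knockout cerebral and control cerebral vessels. No treatment or infection is named in the labels, and where the Notch3 deletion lies is not given in the sources used here. All values are log2 expression values made by the authors with GCRMA, a method that corrects background and normalises arrays together.

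Chemokines are small secreted proteins that draw white blood cells out of the blood, and the vessel wall displays them to passing cells. Il1b, Il6 and Tnf are cytokines that switch on the vessel lining and neighbouring cells, which then make more chemokines and adhesion molecules. Many of these genes are kept low at rest and are induced quickly by the transcription factor NF-kB, with short-lived mRNAs that RNA-binding proteins remove.

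Notch3 read 2.48 to 3.58 in knockout cerebellar vessels and 11.73 to 12.02 in control cerebellar vessels, and 2.48 to 3.15 in knockout cerebral vessels and 10.84 to 11.61 in control cerebral vessels, so every array matched its genotype label. The 13 measured markers of endothelium, the cells lining vessels, averaged 13.30 to 13.48 per array in all 4 groups. Of 11 measured markers of circulating leukocytes, 10 were at or under 3.27 on every array, among them S100a8, S100a9, Cd3e and Cd79a, and the other was Ptprc, which microglia also express (9.66 to 11.49). Fragments of this kind also carry mural cells, perivascular cells and attached microglia. In such mixed samples, fewer cells of a type and less RNA per cell cannot be told apart.

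The promoters of the genes that differed between regions are shown first, together with that of Cxcl10, which did not differ, because they share or lack an NF-kB motif. RefSeq windows of the build GRCm38.p6 were found for 8 of the 10 genes, not for Ccl2 and Ccl4. The 120 bases before the gene start are printed 5′ to 3′ on the gene's strand, with capitals for matches to the NF-kB consensus. For Il1b the start is that of the RefSeq window, and 25 of the printed bases lie inside the gene's outermost bounds in the RefSeq gene table. The stretches are chr5:90891125-90891244 on the plus strand for Cxcl1, chr5:90903779-90903898 on the plus strand for Cxcl2, chr5:92348890-92349009 on the minus strand for Cxcl10, chr11:83649379-83649498 on the minus strand for Ccl3, chr2:129371140-129371259 on the minus strand for Il1b and chr17:35202008-35202127 on the minus strand for Tnf.
Cxcl1: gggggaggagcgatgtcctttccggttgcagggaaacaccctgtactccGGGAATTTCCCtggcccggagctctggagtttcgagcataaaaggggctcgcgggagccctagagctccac
Cxcl2: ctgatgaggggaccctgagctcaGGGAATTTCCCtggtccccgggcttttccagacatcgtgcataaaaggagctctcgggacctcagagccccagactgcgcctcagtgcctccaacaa
Cxcl10: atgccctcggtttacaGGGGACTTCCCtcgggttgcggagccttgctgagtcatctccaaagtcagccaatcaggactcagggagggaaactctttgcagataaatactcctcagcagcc
Ccl3: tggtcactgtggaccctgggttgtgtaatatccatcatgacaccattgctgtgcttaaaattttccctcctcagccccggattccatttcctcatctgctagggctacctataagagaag
Il1b: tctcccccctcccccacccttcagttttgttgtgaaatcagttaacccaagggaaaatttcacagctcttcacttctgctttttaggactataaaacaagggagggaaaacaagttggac
Tnf: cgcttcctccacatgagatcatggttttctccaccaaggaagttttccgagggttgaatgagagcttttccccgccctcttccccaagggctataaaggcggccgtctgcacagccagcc

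Cxcl1 and Cxcl2 are neighbours on chromosome 5 and hold the same run of letters, GGGAATTTCCCTGG, within these windows. That run of 14 bases occurs in 2 of the 32851 promoter windows searched (250 bases before the start), which are those of the pair itself. The run was picked as the longest that the pair's windows share, so these 2 windows were bound to hold it. In each promoter it contains 2 overlapping matches to the NF-kB consensus, which start 71 and 70 bases before the start of Cxcl1 and 97 and 96 bases before that of Cxcl2. Cxcl10 holds 3 matches, 2 of them overlapping in the printed stretch and another starting 159 bases before the gene start, outside it. Il6 holds 1, which starts 44 bases before its start. No match was found in the windows of Cxcl12, Ccl3, Il1b and Tnf. Thus 4 of 8 windows held the consensus on either strand, against 7.25% of all windows. The letters TATAA, searched on the gene strand only, were in the windows of Ccl3, Il1b and Tnf, 3 of 8, against 16% of all windows. A match is a run of letters and was not tested as a site.

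**Figure D1:**
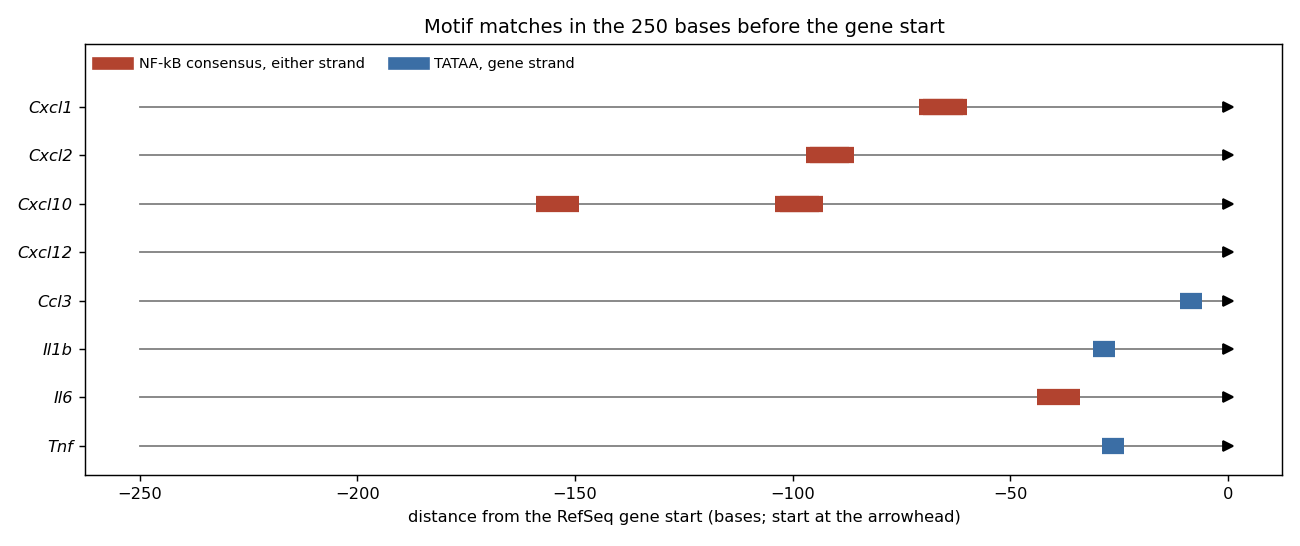
Motif matches in the 250 bases before the RefSeq gene start of the 8 genes with a window; the x axis is the distance from the start in bases, red boxes are the NF-kB consensus on either strand and blue boxes TATAA on the gene strand. The boxes of Cxcl1 and Cxcl2 lie 71 and 97 bases before the start, and no window holds both motifs.

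Cxcl1, Cxcl2, Ccl3, Il1b and Tnf were higher in cerebellar than in cerebral vessels of the same mice, and Cxcl10 and Cxcl12 had nearly equal levels in both regions. In knockout mice 5 of the 7 tested genes were called higher (limma, Benjamini-Hochberg adjusted p under 0.05) and none lower, where 3.84% of all genes were called higher. In control mice 3 of 7, namely Cxcl1, Cxcl2 and Ccl3, were called higher and none lower, against 1.95% of all genes. The 3 cerebellar arrays lay wholly above the 3 cerebral arrays for the same 5 of 7 genes in knockout mice, against 12.9% of all genes, and for those 5 in control mice, against 10.9%. Each log2 change below is cerebellar minus cerebral, with its standard error, and n = 3 arrays per group.

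Cxcl1 and Cxcl2 attract neutrophils through the receptor Cxcr2 in mice. Cxcl1 read 9.61, 9.37 and 9.15 in knockout cerebellar vessels and 7.17, 7.32 and 7.43 in knockout cerebral vessels, a log2 change of 2.07 (SE 0.26, adjusted p = 0.00224). In control mice it read 10.10, 9.21 and 9.68 in cerebellar and 8.50, 7.54 and 8.24 in cerebral vessels, a log2 change of 1.57 (SE 0.26, adjusted p = 0.0141). The lowest cerebellar array was above the highest cerebral array in both genotypes. Its group means, high to low, were 9.66 ± 0.45 in control cerebellar, 9.38 ± 0.23 in knockout cerebellar, 8.09 ± 0.50 in control cerebral and 7.31 ± 0.13 in knockout cerebral vessels (SD, n = 3 each), and the cerebellar pair overlapped.

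Another probe set of Cxcl1 gave the same order of regions. It averaged 8.11 ± 0.25 in knockout cerebellar and 6.36 ± 0.23 in knockout cerebral vessels, and 8.54 ± 0.49 in control cerebellar and 7.29 ± 0.45 in control cerebral vessels (SD, n = 3 each). With every probe set tested on its own, its change was 1.75 in knockout mice (adjusted p = 0.00723) and 1.25 in control mice (adjusted p = 0.0567), where it missed the threshold. The remaining probe set of Cxcl1 averaged 1.84 to 1.93 in the 4 groups, below the median of all values. The call in control mice was lost without control cerebellar replicate 3 (log2 change 1.56, adjusted p = 0.0511) and in a fit of only those 6 arrays (adjusted p = 0.0741).

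Cxcl2 differed most between regions among the 10 genes. It read 7.27, 7.60 and 6.76 in knockout cerebellar vessels and 2.52, 3.75 and 2.61 in knockout cerebral vessels (log2 change 4.25, SE 0.36, adjusted p = 0.000461). Control cerebellar vessels read 7.22, 7.07 and 7.27 and control cerebral vessels 2.62, 3.75 and 3.45 (log2 change 3.91, SE 0.36, adjusted p = 0.000804). In cerebral vessels it was therefore at or near background, with 2 of 3 knockout and 1 of 3 control arrays at or under 3.27. With those arrays raised to 3.27 the log2 change was 3.78 in knockout and 3.70 in control mice, so its size rests partly on the chosen limit. Cxcl2 had 9 of 12 arrays above 3.27, of which 3 were cerebral, so it would have entered the tests without its cerebellar arrays.

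Ccl3 is a chemokine of activated macrophages and microglia that acts on monocytes and other leukocytes, and Ccl4 is its close relative and neighbour on chromosome 11. Ccl3 read 9.72, 9.48 and 8.91 in knockout cerebellar vessels and 7.49, 6.71 and 7.20 in knockout cerebral vessels (log2 change 2.24, SE 0.50, adjusted p = 0.0252). Control cerebellar vessels read 7.79, 7.35 and 8.46 and control cerebral vessels 5.93, 4.37 and 6.51 (log2 change 2.27, SE 0.50, adjusted p = 0.0469). Its group means, high to low, were 9.37 ± 0.42 in knockout cerebellar, 7.87 ± 0.56 in control cerebellar, 7.13 ± 0.40 in knockout cerebral and 5.60 ± 1.11 in control cerebral vessels (SD, n = 3 each), and the middle pair overlapped. The direction was the same in 6 of 6 mice, and the smallest difference within a mouse was 1.71 in knockout and 1.87 in control mice. In the fit without a mouse block these were the least secure of the calls. In knockout mice the call was lost without each array in turn other than knockout cerebellar replicate 3 (adjusted p up to 0.0813). In control mice it was lost without each array other than control cerebral replicate 3 (adjusted p up to 0.154). With the mouse as a fixed replicate block the adjusted p was 0.00259 in knockout and 0.00532 in control mice. That block brought all genes called to 14.7% and 7.81%.

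Ccl4 read 2.49, 2.06 and 2.05 in knockout cerebellar and 1.91, 1.91 and 1.89 in knockout cerebral vessels, with 1.90, 1.90 and 2.52 in control cerebellar and 1.90, 1.90 and 1.88 in control cerebral vessels. Ccl2, the main attractant of monocytes, read 3.06 to 3.19 in knockout cerebellar and 2.93 to 2.96 in knockout cerebral vessels, and 2.89 to 3.24 in control cerebellar and 2.89 to 2.96 in control cerebral vessels. Neither gene was measured above the median of all values in any group, so no fold is given.

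Il1b and Tnf are the early cytokines of the innate response, made in brain chiefly by microglia and macrophages. Il1b read 7.22, 7.21 and 6.37 in knockout cerebellar vessels and 4.74, 4.64 and 4.44 in knockout cerebral vessels (log2 change 2.33, SE 0.43, adjusted p = 0.0117). In control mice it read 6.61, 5.76 and 7.48 in cerebellar and 4.44, 4.68 and 5.67 in cerebral vessels, and the change of 1.69 (SE 0.43, adjusted p = 0.0799) was not called although the arrays did not overlap. Its group means, high to low, were 6.93 ± 0.49 in knockout cerebellar, 6.62 ± 0.86 in control cerebellar, 4.93 ± 0.65 in control cerebral and 4.61 ± 0.15 in knockout cerebral vessels (SD, n = 3 each), and both genotypes overlapped within each region. Mouse 3 was the highest control in both regions, so the within-mouse differences, 2.17, 1.08 and 1.82, varied less than the levels. With the mouse as a fixed replicate block the same change was called (adjusted p = 0.00647), which brought the genes called in control mice to 4 of 7, where that block brought all genes called to 7.81%. In knockout mice the call was lost without knockout cerebellar replicate 2 (log2 change 2.19, adjusted p = 0.0506).

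Tnf read 6.55, 6.06 and 6.20 in knockout cerebellar vessels and 4.61, 4.84 and 5.25 in knockout cerebral vessels (log2 change 1.37, SE 0.22, adjusted p = 0.00581). Control cerebellar vessels read 5.98, 5.24 and 5.28 and control cerebral vessels 5.01, 4.84 and 5.01 (log2 change 0.55, SE 0.22, adjusted p = 0.268), which was not called. Its group means, high to low, were 6.27 ± 0.25 in knockout cerebellar, 5.50 ± 0.41 in control cerebellar, 4.95 ± 0.09 in control cerebral and 4.90 ± 0.32 in knockout cerebral vessels (SD, n = 3 each), of which the cerebral pair overlapped. The highest knockout cerebral array, at 5.25, also lay just above the lowest control cerebellar array, at 5.24. Within mice Tnf was higher in the cerebellum by 1.94, 1.22 and 0.95 in knockouts and by 0.97, 0.40 and 0.27 in controls, so the largest control difference lay just above the smallest knockout one. The difference between the genotypes is tested further on.

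Il6 stayed under 3.27 throughout. It read 2.97, 3.16 and 3.03 in knockout cerebellar vessels, 2.58, 2.58 and 2.60 in control cerebellar vessels, 2.59, 2.60 and 2.60 in knockout cerebral vessels and 2.59, 2.60 and 2.46 in control cerebral vessels. The knockout cerebellar arrays were thus set apart by a small step below the limit used for measured values. Without a filter that step was called against control cerebellar vessels (log2 change 0.46, SE 0.05, adjusted p = 0.00118) and against knockout cerebral vessels (0.45, adjusted p = 0.0041), and no fold is given for it.

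Cxcl10, an interferon-induced chemokine for T cells, and Cxcl12, which vessel cells make at rest and which holds progenitor cells in place, did not share the regional difference. Cxcl10 averaged 5.90 ± 0.13 in knockout cerebellar and 5.88 ± 0.21 in knockout cerebral vessels, and 6.18 ± 0.19 in control cerebellar and 6.15 ± 0.22 in control cerebral vessels (SD, n = 3 each). Its log2 change was 0.02 in knockout mice (95% interval -0.30 to 0.33, adjusted p = 0.979) and 0.03 in control mice (-0.29 to 0.35, adjusted p = 0.969). Cxcl12 averaged 14.37 ± 0.15 in knockout cerebellar and 14.43 ± 0.07 in knockout cerebral vessels, and 14.16 ± 0.10 in control cerebellar and 14.26 ± 0.08 in control cerebral vessels. Its change was -0.06 in knockout mice (-0.25 to 0.13) and -0.10 in control mice (-0.29 to 0.09). Its second probe set had the other sign, 0.18 in knockout and 0.19 in control mice, and was not called, and the remaining one averaged near 3.72 in every group.

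**Figure D2:**
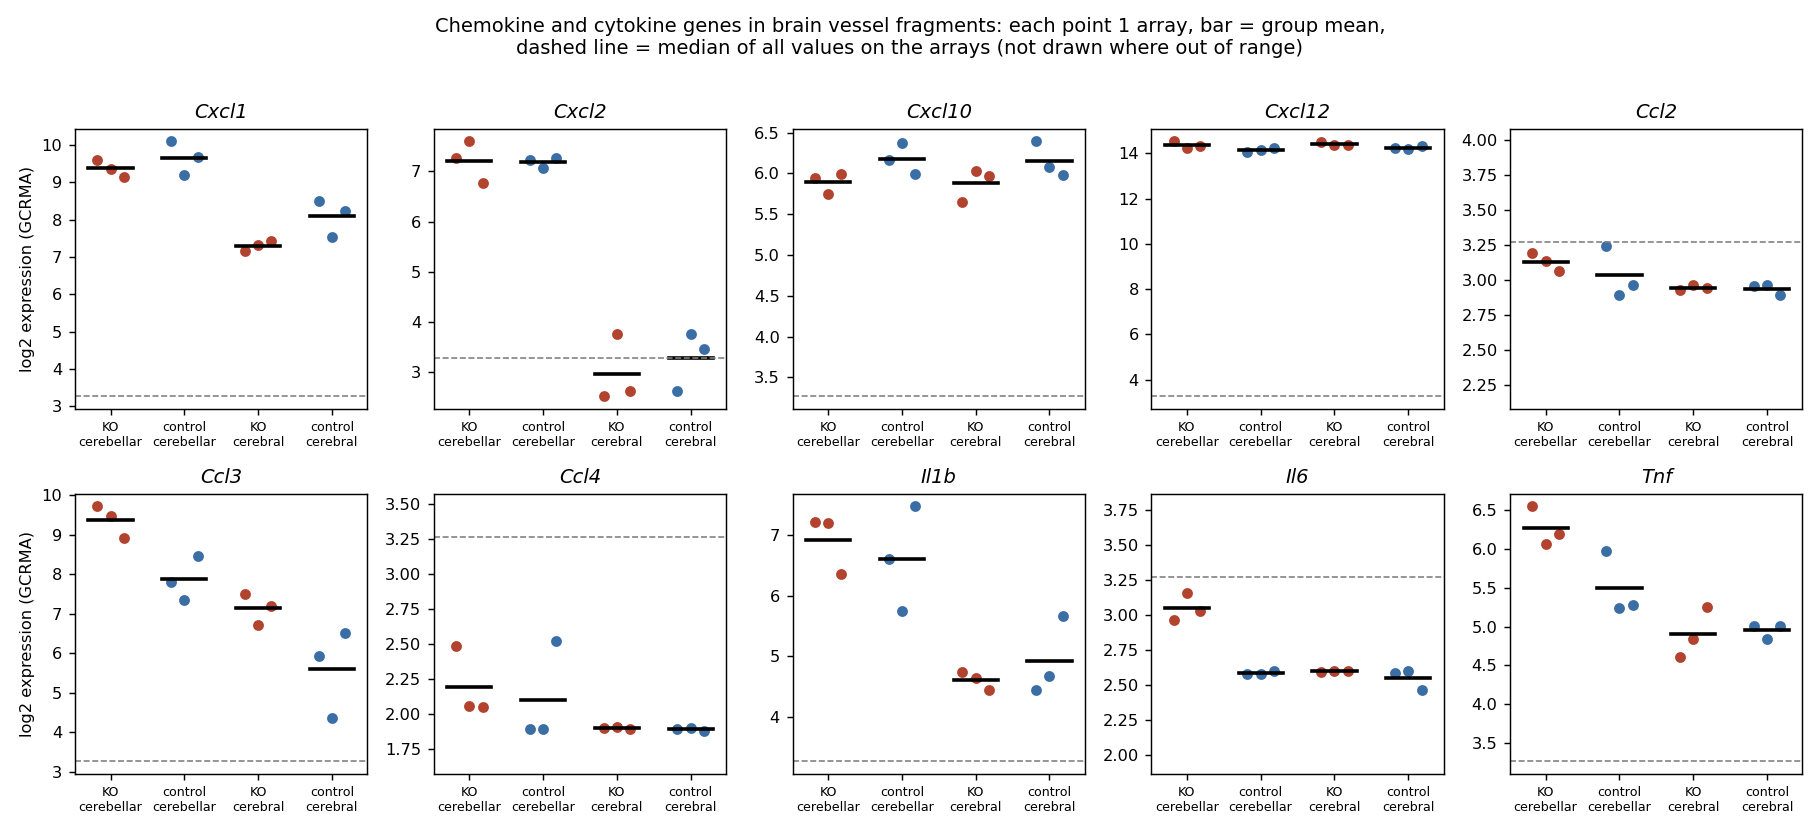
Log2 expression (y axis) of the 10 genes on each of the 12 arrays, with 3 points per group in the order knockout cerebellar, control cerebellar, knockout cerebral and control cerebral; bars are group means and the dashed line is the median of all values, 3.27. Cxcl1, Cxcl2, Ccl3, Il1b and Tnf stand higher in cerebellar vessels, Cxcl10 and Cxcl12 are level, and all points of Ccl2, Ccl4 and Il6 lie under the line.

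**Figure D3:**
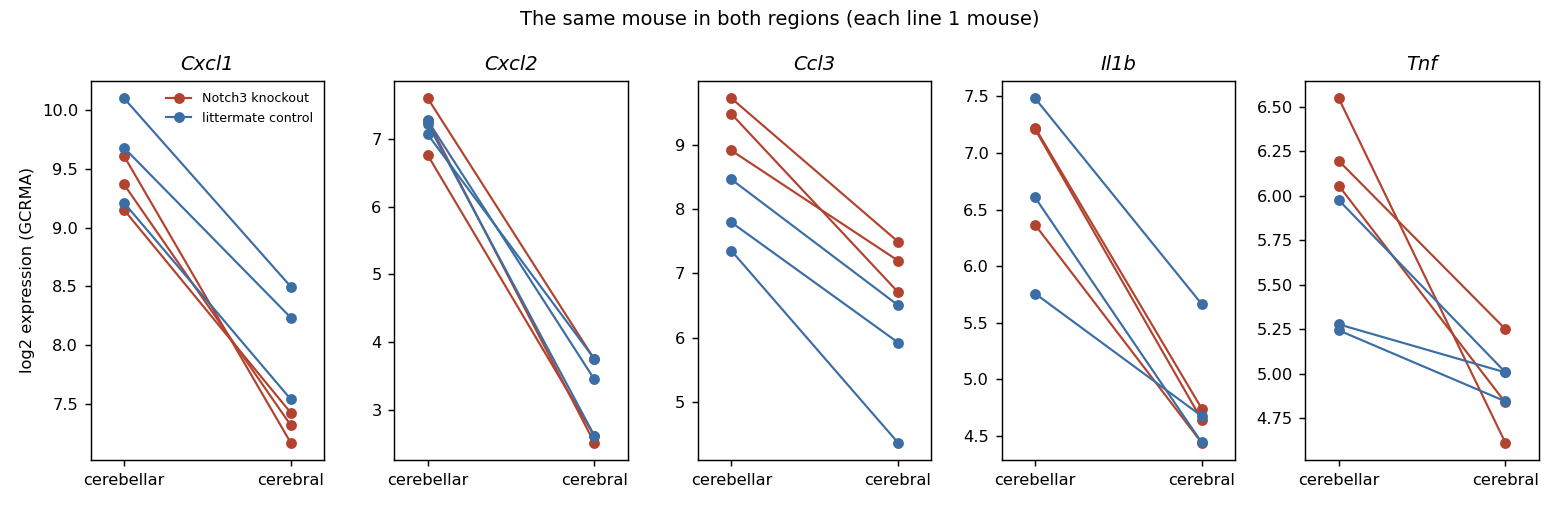
Log2 expression (y axis) of 5 genes in cerebellar and cerebral vessels of the same mouse, with 1 line per mouse (red, knockout; blue, control). Each of the 6 lines falls from cerebellar to cerebral in each panel.

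Among the genes around these ligands, those induced by cytokines and those of quick early responses were partly higher in cerebellar vessels, and receptors went both ways. Of 24 tested genes that cytokines induce, 6 were called higher and none lower in knockout mice (median log2 change 0.14, against 0.00 over all tested genes) and 4 higher and none lower in control mice (median 0.06, against -0.02). Socs3, the feedback inhibitor of cytokine receptors, had a change of 1.66 in knockout (adjusted p = 0.00231) and 1.98 in control mice (adjusted p = 0.00216). Junb, a subunit of the factor AP-1, had a change of 1.40 in knockout (adjusted p = 0.00131) and 1.76 in control mice (adjusted p = 0.000552). In knockout mice the metalloreductase Steap4 had 1.03 (adjusted p = 0.00465), and F3, the tissue factor that starts clotting, averaged 8.34 ± 0.24 in cerebellar and 7.34 ± 0.46 in cerebral vessels (SD, n = 3 each, adjusted p = 0.0336 in limma). In control mice Zfp36, which binds the mRNAs of Tnf and other cytokines and marks them for decay, had 1.08 (adjusted p = 0.000534) and Ier3, an early response gene, 0.60 (adjusted p = 0.0243). Both were higher in cerebellar vessels of knockout mice too, and at most 4 called genes are named per genotype. In control mice Steap4 had 0.52 (adjusted p = 0.128) and F3 0.74 (adjusted p = 0.155), neither called. A difference between the genotypes in this change was called by limma for 0 of 24, against 0.0427% of all genes. With the mouse as a fixed replicate block, 9 of the 24 were called in knockout mice, where 14.7% of all genes were. In control mice 8 were, against 7.81% of all genes. The adhesion molecules Icam1 and Vcam1 of this list had changes of -0.09 (adjusted p = 0.734) and -0.14 (adjusted p = 0.573) in knockout mice.

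Of 21 tested genes of the NF-kB pathway, 2 were called higher in knockout mice and 1 in control mice, and none lower. Over all genes, 3.84% were called higher in knockout and 1.95% in control mice. Nfkbiz, a nuclear cofactor of NF-kB, had a change of 1.74 in knockout (SE 0.16, adjusted p = 0.000575) and 1.50 in control mice (SE 0.16, adjusted p = 0.002). Nfkbid, an inducible IkB protein of the nucleus, had one of 3.32 in knockout mice (SE 0.58, adjusted p = 0.00896), where 1 of 3 cerebral arrays was at or under 3.27. The list's median change was -0.06 in knockout and -0.10 in control mice, and Nfkbia, the classic NF-kB inhibitor and target, had changes of 0.05 and 0.03. With the mouse as a replicate block the counts were 4 in knockout and 3 in control mice. As a fixed block it brought all genes called to 14.7% and 7.81%. Without control cerebral replicate 2, and likewise without replicate 3, the count without a block was 2 in control mice.

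Receptors and the other ligands had calls in both directions, to be set beside the 6.8% of all genes called in knockout mice and 2.29% in control mice. Of 12 tested receptors and binding proteins, 1 was called higher and 1 lower in knockout mice (median -0.04) and none in control mice (median -0.05, 3 of 12 at an unadjusted p under 0.05 in limma). Ccrl2, a surface protein that binds chemerin, had a change of 0.50 (adjusted p = 0.0354), and Tnfrsf1b, the second Tnf receptor, one of -0.73 (adjusted p = 0.0167). Cxcr2, the receptor of Cxcl1 and Cxcl2, and Cxcr4, the signalling receptor of Cxcl12, were at or under 3.27 on all arrays. Among 11 other chemokines, Ccl6 alone was called, lower in cerebellar than in cerebral vessels of knockout mice (log2 change -1.08, adjusted p = 0.0392), and 0 of 11 were called in control mice, where 0 had an unadjusted p under 0.05 in limma. Among 12 other cytokines, Il33, an alarm signal kept in cell nuclei, was called higher in knockout (1.88, adjusted p = 0.00184) and control mice (1.37, adjusted p = 0.0135). Il34, a ligand of the Csf1 receptor, had a change of 0.78 (adjusted p = 0.0425) and Il16 one of -1.32 (adjusted p = 0.0396) in knockout mice.

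Of 16 tested genes that process these cytokines or control their mRNAs, 3 were called lower in knockout mice (median -0.20) and none in control mice (median -0.09, 2 of 16 at an unadjusted p under 0.05 in limma). Over all genes, 2.96% were called lower in knockout and 0.333% in control mice. The 3 were parts of the inflammasome, which cuts the Il1b precursor. They were Casp1, its protease (-0.87, adjusted p = 0.035), Pycard, its adaptor (-0.84, adjusted p = 0.0369), and Aim2, a sensor of DNA (-0.58, adjusted p = 0.0446). Nlrp3, another inflammasome sensor on the list, was not called. In the same comparison Il1b itself was higher.

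**Figure D4:**
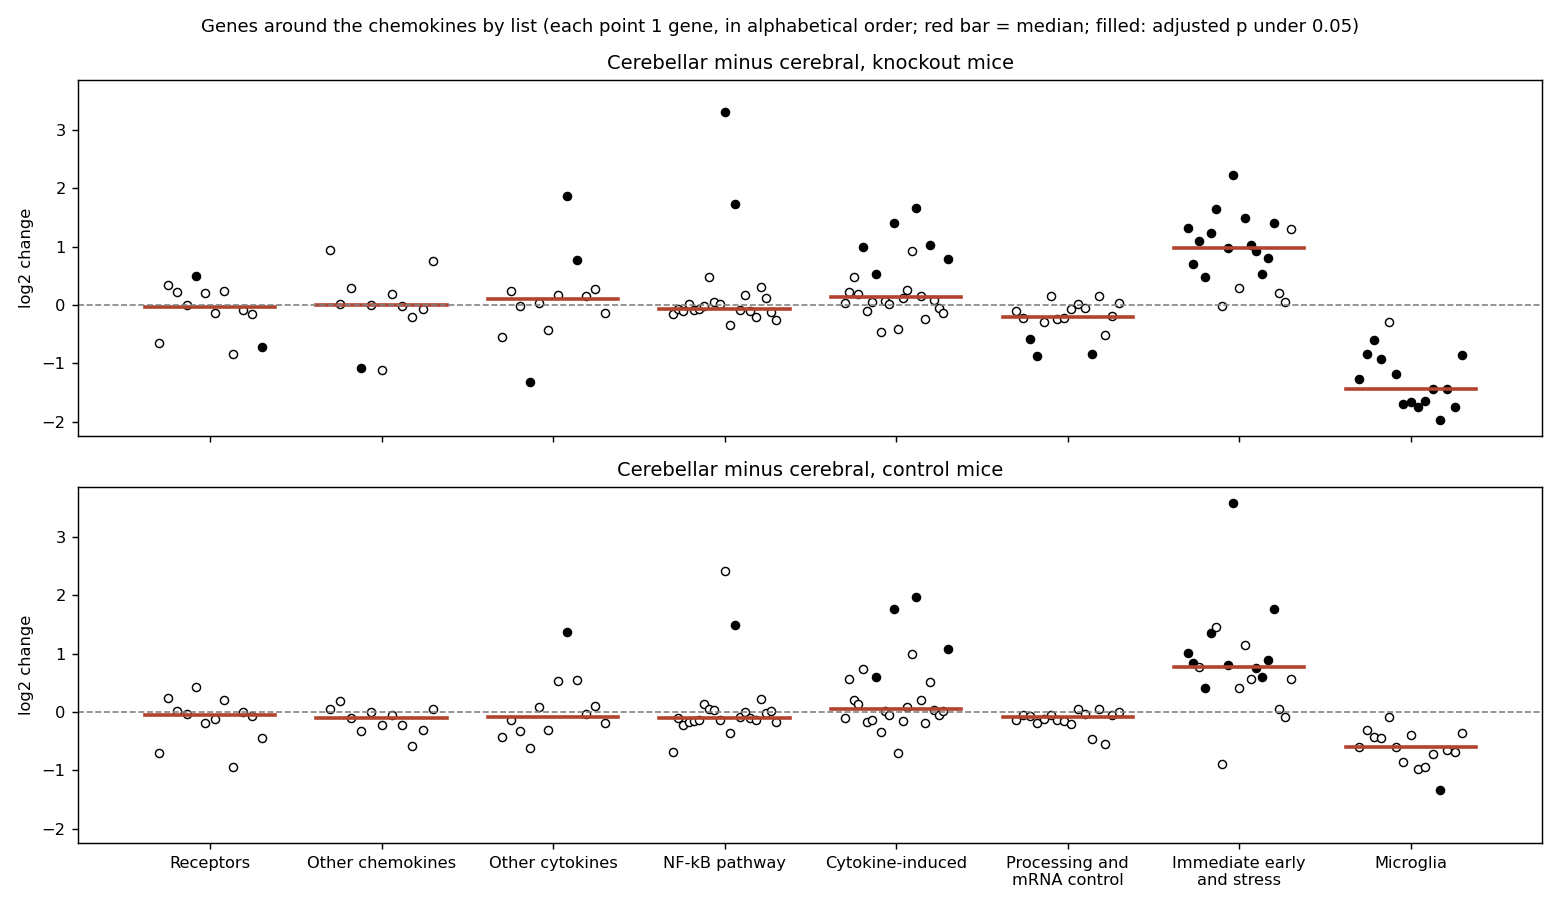
Log2 change, cerebellar minus cerebral (y axis), of each tested gene in 8 lists (x axis), in knockout mice above and control mice below; each point is 1 gene, filled where the adjusted p was under 0.05, and the red bar is the list's median. The early response list lies mostly above 0 and the microglia list below 0 in both genotypes.

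Several marker lists moved with the region. Of 19 tested early response and stress genes, a list that tissue handling can also induce, 14 were called higher and none lower in knockout mice (median 0.98) and 10 higher and none lower in control mice (median 0.78). Junb and Ier3 are on this list and on the cytokine list. Fosb, a subunit of AP-1, is among both counts but was at or under 3.27 on all cerebral arrays, so it was tested through its cerebellar arrays alone. Without it the counts were 13 and 9. The log2 of their summed level was 17.24 to 17.35 in knockout cerebellar and 16.60 to 16.70 in knockout cerebral vessels, and 17.42 to 17.54 in control cerebellar and 16.92 to 17.02 in control cerebral vessels. The count in knockout mice was 9 without knockout cerebral replicate 1 or knockout cerebellar replicate 2. The part of these genes in the regional difference of the chemokines was not tested.

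Microglia markers went the other way from Ccl3, Il1b and Tnf. Of 15 tested markers, 14 were called lower and none higher in knockout cerebellar vessels (median -1.43), and 1, Siglech, in control mice (median -0.61). The log2 of their summed level was 16.19 to 16.27 in knockout cerebellar and 16.79 to 17.32 in knockout cerebral vessels, and 15.87 to 16.17 in control cerebellar and 16.13 to 16.60 in control cerebral vessels. The count in knockout mice was 8 when knockout cerebral replicate 1 or knockout cerebellar replicate 3 was left out, and 9 when it was knockout cerebral replicate 3 or knockout cerebellar replicate 2. With the mouse as a fixed replicate block it was 15 in knockout and 7 in control mice, where 14.7% and 7.81% of all genes were called. In the fit with no block, the control count was 0 without control cerebral replicate 1 or 3 or control cerebellar replicate 2 or 3. Within each genotype the region with the higher mean of these markers had the lower means of Ccl3, Il1b and Tnf. In control mice the summed levels of the markers overlapped between regions. The part of microglia in the regional difference of these genes was not tested.

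Other cell marker lists had smaller median changes than the microglia list in both genotypes. In control mice, though, more markers were called in the mural, fibroblast and astrocyte lists than in the microglia list. Perivascular macrophage markers had 0 of 7 called in either genotype, with 1 of 7 at an unadjusted p under 0.05 in knockout and 0 in control mice. Endothelial markers had 0 of 13 called in either genotype, with 2 of 13 at an unadjusted p under 0.05 in knockout and 0 in control mice. Called higher in cerebellar vessels were 5 of 12 mural markers in knockout and 4 of 12 in control mice. For fibroblast markers it was 5 of 10 and 3 of 10, and for astrocyte markers 3 of 7 and 2 of 7. None of these was called lower. Of the 7 astrocyte markers, however, only 5 had a positive change in each genotype. In control mice Slc1a3 (-1.05, adjusted p = 0.106 in limma) and Slc1a2 (-0.69, adjusted p = 0.166) were lower and not called. None of 5 neuronal markers was called (unadjusted p under 0.05 for 3 in knockout and 2 in control mice), and the 1 leukocyte marker tested was not called either. Over all genes tested, 3.84% were called higher and 2.96% lower in knockout mice. In control mice 1.95% were called higher and 0.333% lower.

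The second question was whether loss of Notch3 changed these genes. No member was called in either region, with knockout minus control log2 changes between -0.79 and 1.53. In cerebral vessels 0 of 7 were called by limma, against 6.38% of all genes (2.45% higher and 3.93% lower), and 2 of 7 had an unadjusted p under 0.05, against 20.6%. In cerebellar vessels 0 of 7 were called, against 4.22% of all genes (1.06% higher and 3.17% lower), and 3 of 7 had an unadjusted p under 0.05, against 16.8%. Knockout and control arrays did not overlap for 3 of 7 in cerebral vessels, against 24.4% of all genes, and for 2 of 7 in cerebellar vessels, against 22.1%. With 7 genes, such counts are not read as a result about these genes as a group. The comparisons share arrays with each other and are given side by side.

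Ccl3 had the largest knockout difference and the same direction in both regions. As listed above, its 3 knockout arrays read 8.91 to 9.72 against 7.35 to 8.46 in control cerebellar vessels, and 6.71 to 7.49 against 4.37 to 6.51 in control cerebral vessels. Knockout arrays were thus above control arrays in both regions. The log2 change was 1.50 in cerebellar (SE 0.50, 95% interval 0.40 to 2.60, adjusted p = 0.143) and 1.53 in cerebral vessels (SE 0.50, 0.43 to 2.63, adjusted p = 0.104). Over the mean of both regions per mouse it was 1.52 (SE 0.41, n = 3 mice per group, 0.51 to 2.53, adjusted p = 0.118). Without control cerebral replicate 3 the cerebral difference was 1.99 and called (adjusted p = 0.0498), and without control cerebral replicate 2, the lowest array, it was 0.92.

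Cxcl1 was lower in knockout cerebral vessels, at 7.17, 7.32 and 7.43, than in control cerebral vessels, at 8.50, 7.54 and 8.24, and the arrays did not overlap. The log2 change of -0.79 (SE 0.26, 95% interval -1.37 to -0.20, adjusted p = 0.114) was not called, and the second probe set gave -0.93 (adjusted p = 0.0843). In cerebellar vessels the arrays overlapped (log2 change -0.29, adjusted p = 0.66). Without control cerebral replicate 2 the cerebral change was -1.06 and called (adjusted p = 0.0369), as it was with array weights (-0.96, adjusted p = 0.0472). Per mouse the change was -0.54 (adjusted p = 0.264), and -0.79 without control mouse 2 (adjusted p = 0.0472).

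Tnf was higher in knockout cerebellar vessels, at 6.55, 6.06 and 6.20, than in control cerebellar vessels, at 5.98, 5.24 and 5.28, with no overlap and a log2 change of 0.77 (SE 0.22, 95% interval 0.29 to 1.25, adjusted p = 0.0888). It was called without control cerebellar replicate 1 (1.01, adjusted p = 0.0196) and with array weights (0.86, adjusted p = 0.0418). In cerebral vessels the change was -0.05 (-0.54 to 0.43, adjusted p = 0.934). Tnf lies 3.03 Mb from Notch3 on chromosome 17 in the RefSeq table of GRCm38.p6. Whether sequence carried along with the deletion bears on the Tnf values was not tested.

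The other members differed less. Cxcl10 had knockout changes of -0.28 in cerebellar (-0.60 to 0.03) and -0.27 in cerebral vessels (-0.59 to 0.05), and the 3 knockout mice lay below the 3 controls on the mean of both regions (-0.28, unadjusted p = 0.0262 in limma, adjusted p = 0.189). Cxcl12 had 0.21 in cerebellar (adjusted p = 0.263) and 0.17 in cerebral vessels (adjusted p = 0.319), with its second probe set at -0.17 and -0.16, so its probe sets disagreed in sign. Il1b had 0.32 in cerebellar (-0.65 to 1.28) and -0.32 in cerebral vessels (-1.28 to 0.65). Cxcl2 had 0.02 in cerebellar (-0.79 to 0.83) and -0.32 in cerebral vessels (-1.13 to 0.49). These intervals of Il1b and Cxcl2 reach 0.49 or more on the log2 scale in either direction.

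Over the mean of both regions per mouse, 0 of 7 were called, against 4.03% of all genes, 3 of 7 had an unadjusted p under 0.05 in limma, against 19.7%, and 3 of 7 did not overlap, against 26.3%. Whether the knockout changed cerebellar vessels more than cerebral ones was tested as an interaction, which limma called for 0 of 7, against 0.0427% of all genes. In this fit, which has no mouse block, Tnf alone of the 7 had an unadjusted p under 0.05 (4.66% of all genes did). For Tnf the interaction was 0.82 (SE 0.31, 95% interval 0.14 to 1.50, adjusted p = 0.999). For Cxcl1 it was 0.50 (-0.32 to 1.32), for Il1b 0.64 (-0.73 to 2.00) and for Ccl3 -0.03 (-1.59 to 1.52). With the mouse as a fixed replicate block the intervals of Cxcl1, Il1b and Ccl3 were narrower and that of Tnf was not. Again no member was called. The interval of Cxcl1 was then 0.07 to 0.93 (unadjusted p = 0.0281, adjusted p = 0.423 in limma). That of Tnf was 0.14 to 1.51 (adjusted p = 0.418) and that of Il1b -0.07 to 1.34 (adjusted p = 0.528). A regional difference that was called in knockout mice alone, as for Il1b and Tnf, was therefore not shown to depend on the genotype.

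**Figure D5:**
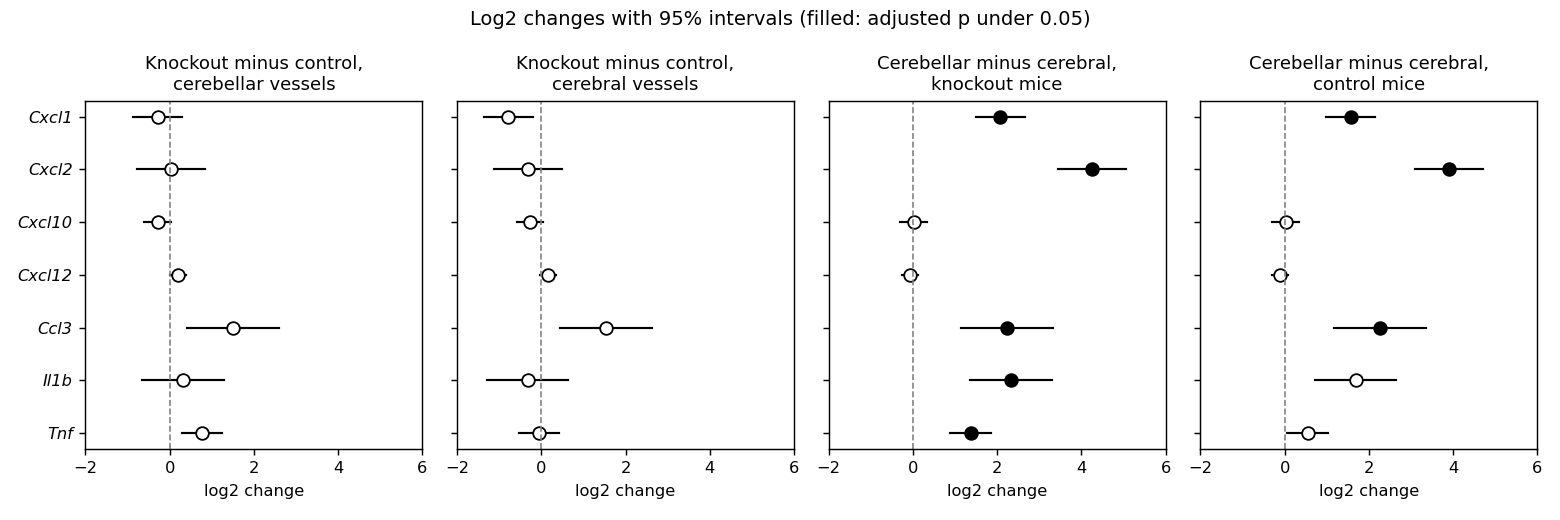
Log2 change (x axis) of the 7 tested genes with 95% intervals, in 4 comparisons from left to right: knockout minus control in cerebellar vessels, knockout minus control in cerebral vessels, cerebellar minus cerebral in knockout mice and in control mice; filled points have an adjusted p under 0.05. The knockout panels hold no filled point, and the regional panels hold 5 and 3.

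Among related genes, some chemokines outside the 10 were called with the knockout. Of 11 other chemokines, 2 were called higher and 1 lower in knockout cerebral vessels, and 1 lower in knockout cerebellar vessels. Ccl6 read 10.30, 9.36 and 9.99 in knockout cerebral and 8.42, 7.73 and 8.48 in control cerebral vessels (1.67, adjusted p = 0.00498), and Ccl9 had a change of 1.67 (adjusted p = 0.0343). Both are chemokines of mouse myeloid cells. Cxcl11, which is induced by interferon like Cxcl10, was called lower in cerebral (-0.71, adjusted p = 0.00276) and cerebellar vessels (-0.51, adjusted p = 0.0194).

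The other genes of the pathway are to be set beside the 6.38% of all genes called in cerebral and 4.22% in cerebellar vessels. Of the 21 NF-kB pathway genes, 2 were called lower in cerebral vessels, Tirap (-0.47, adjusted p = 0.00695) and Relb (-0.32, adjusted p = 0.00909), and 2 in cerebellar vessels, Tirap (-0.52, adjusted p = 0.00385) and Myd88 (-0.39, adjusted p = 0.0117). The cerebellar count was 1 without knockout cerebellar replicate 3. Tirap and Myd88 are adaptors of Toll-like receptors and Relb is a subunit of NF-kB. Of the 24 cytokine-induced genes, Steap4 was called lower in cerebral vessels (-0.96, adjusted p = 0.00521) and none in cerebellar vessels (3 of 24 at an unadjusted p under 0.05 in limma). Of the 16 processing genes, Gsdmd, whose product opens pores for Il1b release, was called higher in cerebral vessels (0.32, adjusted p = 0.0403) and none in cerebellar vessels (3 of 16 at an unadjusted p under 0.05). No receptor of 12 and no other cytokine of 12 was called in either region by limma, with 5 and 2 of 12 in cerebral and 4 and 0 of 12 in cerebellar vessels at an unadjusted p under 0.05.

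Some cell marker lists and early response genes also moved with the knockout. Over all genes, 2.45% were called higher and 3.93% lower in cerebral vessels, and 1.06% higher and 3.17% lower in cerebellar vessels. Of 12 mural markers, which include Notch3 itself, 7 were called lower in cerebral (median -0.46) and 6 in cerebellar vessels (median -0.36), and none higher. Of 10 fibroblast markers, 1 was called higher and 1 lower in each region, and of 5 neuronal markers 1 was called lower in each. In either region 0 of 13 endothelial, 0 of 7 astrocyte and 0 of 7 perivascular macrophage markers were called. At an unadjusted p under 0.05 in limma were 1, 2 and 2 of them in cerebral and 1, 1 and 0 in cerebellar vessels. Of 15 microglia markers, 7 were called higher in cerebral vessels (median 0.88). In cerebellar vessels none was called (median 0.15, 1 of 15 at an unadjusted p under 0.05 in limma). With 1 cerebral array left out the count became 0 (control 2, and also knockout 3), 1 (control 1, and also knockout 1), 6 (control 3) or 12 (knockout 2). Of 19 immediate early genes, 1 was called higher and 4 lower in cerebral vessels (median -0.23) and 2 lower in cerebellar vessels (median -0.22). The cerebral count of 5 was 1 to 3 without each array in turn. The cerebellar count of 2 was 0 without control cerebellar replicate 1 or 3 or knockout cerebellar replicate 3, and 1 without knockout cerebellar replicate 1 or 2. The part of these lists in the values of Ccl3, Cxcl1 and Tnf was not tested.

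The genes whose pattern over the 12 arrays was most like that of each member were found by Pearson's r, given as a description. The arrays come from 6 mice and carry the regional difference, so genes that differ between regions are alike for that reason. Cxcl1 was most like Nfkbiz, Ppp1r15a and Jun (r = 0.95, 0.95 and 0.94), Cxcl2 like Itgb8, Akap17b and Kcnj8 (0.98, 0.98 and 0.97) and Ccl3 like Nfkbid, Spcs1 and Sfrp2 (0.94, 0.92 and 0.92). Il1b was most like Dlk1, Ptgs2 and Nfkbiz (0.95, 0.93 and 0.92), and Tnf like Adcyap1r1, Lmbrd1 and Frrs1l (0.93, 0.92 and 0.92). Nfkbiz thus stood among the nearest genes of both Cxcl1 and Il1b. Cxcl10 was most like Tmem161a, Slc30a1 and Ric8b (0.89, 0.88 and 0.86) and Cxcl12 like Pik3r3, Gosr2 and Smarcc2 (0.97, 0.92 and 0.92).

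After each group's mean was subtracted, other genes came first. The nearest were Plk3, Spata5l1 and Hmgcs1 for Cxcl1 (r = 0.96, 0.94 and 0.93), Clec5a, Slc11a1 and Fcgr3 for Ccl3 (0.95, 0.94 and 0.94), Wdr46, Exosc9 and Nop9 for Il1b (0.96, 0.94 and 0.93) and Rpia, Zfp472 and Ap4e1 for Tnf (0.94, 0.91 and 0.91). They were Efemp1, 2310030G06Rik and Nr3c2 for Cxcl2 (0.93, 0.92 and 0.92), Xpo5, Six5 and Sec63 for Cxcl10 (0.95, 0.95 and 0.90) and Mmp14, 1600014C10Rik and Pik3r3 for Cxcl12 (0.96, 0.96 and 0.95). Among the members themselves, Cxcl1 and Cxcl2 had an r of 0.89 over the 12 arrays and -0.20 after the group means were subtracted. Their likeness was thus seen between the groups. Cxcl2 had an SD of 0.68 in knockout and 0.59 in control cerebral vessels, where it was at or near background. In cerebellar vessels it was 0.42 and 0.11. The second r therefore rests largely on near-background values and cannot show whether the pair varies together within groups.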

How the data were processed

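RNA of microvascular fragments from 2 brain regions of 6 mice was measured on 12 arrays. The authors computed a log2 value for each probe set with GCRMA 2.32.0, per the submitters' processing notes, and this table was analysed without further normalization. Of 45101 probe sets, 34945 named 1 gene in the platform annotation, 932 several and 9160 none, and 64 control probe sets were left out. Array medians were 3.24 to 3.30 and single values 0.690 to 16.3. The number of arrays limits the precision.

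Across all genes, 4 group means were fitted with the R package limma (version 3.58.1 under R 4.3.3; lmFit, then eBayes; two-sided, Benjamini-Hochberg over 11716 genes, threshold 0.05), and for the mean of both regions per mouse over 6 mice. The steps were tested on simulated data. Residual degrees of freedom were 8 and 4. Promoter windows came from RefSeq (GRCm38.p6). The members, lists and tests were chosen with earlier results of these data known. All members are named; from each pathway list up to 4 called genes with the largest change are named, and for likeness the 3 genes with the highest r. Icam1, Vcam1, Nfkbia, Cxcr2, Cxcr4, S100a8, S100a9, Cd3e, Cd79a and Ptprc are named outside this rule and were picked with their values known.

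Titles carry a replicate number, and arrays of 1 genotype with the same number were treated as 1 mouse, although no label states it. Deviations from the group means of both regions of the same number correlated at r = 0.573, 0.705 and 0.601 in knockout and 0.371, 0.495 and 0.547 in control mice, so these pairs were used as a mouse block. Alternatives covered the filter, probe sets, scaling, variance model, array weights, arrays in the fit, blocks, an Xist covariate and leaving out each array or mouse.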

Additional observations from a re-analysis of the deposited data

How the results depend on the processing

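Of 774 values of single members under an alternative, 710 kept their direction and their side of the threshold, 17 lost a call, 10 gained one and 37 changed sign, all of the last for changes that were not called. The genes called with the knockout in cerebral vessels were 1 in place of 0 with array weights, and 0 to 1 without each array. In cerebellar vessels they were 1 in place of 0 with no filter (Il6, under 3.27 throughout) and with array weights, and 0 to 1 without each array. Over the mean per mouse they were 1 with no filter, again Il6, and 0 to 1 without each mouse. Between regions in knockout mice, 2 in place of 5 were called with the filter at the 75th percentile, which left 3 members tested, and 3 to 5 without each array. In control mice, 1 in place of 3 was called with only the 6 arrays compared and 1 to 3 without each array. Apart from the filters, which change the genes tested, and the smaller fits, the cause was not tested.

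Sign changes, all of changes that were not called, were as follows. Among them Il1b had main knockout changes of -0.32 in cerebral and 0.32 in cerebellar vessels, so its direction there depended on single arrays. With the mean of probe sets, Cxcl12 had a regional change of 0.0388 in knockout and 0.0282 in control mice. With array weights, Cxcl10 had -0.04 between regions in control mice and 0.0666 for the interaction, Ccl3 had 0.21 for the interaction, and Il1b had 0.17 per mouse. With quantile normalization, Il1b had 0.0319 per mouse. Without each array or mouse in turn, Il1b ranged from -0.56 to 0.0495 and Tnf from -0.23 to 0.0913 with the knockout in cerebral vessels, and Cxcl2 from -0.17 to 0.25 and Il1b from -0.11 to 0.75 in cerebellar vessels. Between regions, Cxcl10 ranged from -0.10 to 0.0925 in knockout and -0.0697 to 0.15 in control mice, and Cxcl12 from -0.15 to 0.00 in knockout mice, where the highest value was 0.0006. For the interaction, Cxcl10 ranged from -0.13 to 0.0865, Cxcl12 from -0.0446 to 0.10 and Ccl3 from -0.49 to 0.58. Per mouse, Cxcl2 ranged from -0.44 to 0.0518 and Il1b from -0.28 to 0.40.

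Ccl3 also lost its regional call with no filter, in knockout (adjusted p = 0.0623) and control mice (adjusted p = 0.102), and in control mice with every probe set tested (0.0557) and with only the 6 arrays (0.139). Il1b gained the call between regions in control mice with array weights (adjusted p = 0.0197), the Xist covariate (0.0294) and the mouse as a random replicate block (0.0107). The mouse blocks changed no other call of a member. Same-numbered mice of different genotype had r of 0.194, 0.180 and 0.00655 in cerebral and 0.259, 0.0313 and -0.166 in cerebellar vessels. Pairs of mice with unlike numbers had a lowest r of -0.215 and a highest of 0.0681 for the cerebral arrays. For the cerebellar arrays the lowest was -0.347 and the highest 0.266. Whether the number stands for something shared across genotypes was not tested. As a replicate block the number left Ccl3 and the other members uncalled with the knockout (0 of 7 in each region). In cerebral vessels the adjusted p in limma was then 0.0545 for Ccl3 and 0.0562 for Cxcl1.

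Counts over all genes moved more. With the knockout in cerebral vessels 748 genes were called, and 1415 with array weights, 1127 with the number as a replicate block, 310 with only 6 arrays and 439 to 870 without each array. In cerebellar vessels 495 were called, and 302 to 397 without each array. Between regions in knockout mice 797 were called, and 508 with no filter, 322 with only 6 arrays, 1346 with the number as a block, 1947 and 1723 with the mouse as a random and fixed block, and 366 to 1099 without each array. In control mice 268 were called, and 160, 213, 627, 966 and 915 under those settings in that order, 1078 with array weights and 79 to 239 without each array. Per mouse 472 were called, and 312 with no filter, 710 with every probe set and 237 to 473 without each mouse. The interaction had 5 called, and 2 with no filter, 0 at the 75th percentile and 1 to 20 without each array. Apart from left-out arrays, list counts ranged as follows with the knockout in cerebral vessels: 0 to 13 for microglia markers, 1 to 7 for early response genes, 0 to 4 for the NF-kB pathway and 0 to 1 for cytokine-induced genes. Between regions the microglia count was 8 to 15 in knockout and 1 to 10 in control mice, the early response count 10 to 16 and 8 to 15, the cytokine-induced count 5 to 9 and 3 to 9, and the NF-kB count 1 to 4 and 1 to 3.

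With 3 arrays per group, the interval of a knockout change spanned over 2 log2 units for Ccl3, so moderate changes of this gene were not detectable here. Cxcl2 in cerebral vessels lay near the median of all values, and Ccl2, Ccl4 and Il6 lay below it in all groups, where GCRMA values have little resolution.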
